A study of Mus musculus with 24 samples.

Results

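Collagens, laminins and the proteins that join and crosslink them were followed in mouse hippocampal CA1 through the first days after pilocarpine-induced status epilepticus (SE). The genes were taken by symbol, as every collagen chain, every laminin chain, both nidogens, fibronectin (Fn1), perlecan (Hspg2), Sparc and the lysyl oxidases Lox and Loxl1 to Loxl4. The rule found 65 genes among the 18647 in the count table, and all 65 passed the filter on low counts that left 18153 genes for testing. In 54 of the 65 the mean over all libraries was at least 1 on the log2 scale of CPM (counts scaled to a common library size).

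The extracellular matrix of the brain is dense in basement membranes, thin sheets that surround the blood vessels and line the pial surface. In these sheets, collagen IV and laminin each form a network in the basement membrane, and nidogens and perlecan link the networks to each other. Fibrillar collagens such as types I and III are scarce in the healthy brain and are produced mainly by fibroblasts of the meninges and vessels. Lysyl oxidases crosslink collagen and elastin outside the cell.

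CA1 was microdissected from 400 µm slices of adult C57Bl/6N mice at least 60 days old, and poly(A) RNA was sequenced as bulk tissue. SE animals had received scopolamine methyl nitrate at 1 mg/kg and, 20 min later, pilocarpine at 335 mg/kg, with diazepam at 4 mg/kg given 40 min after SE onset. In the controls (Ctr) the pilocarpine dose was replaced by saline. CA1 was taken between 6 and 72 h after SE (groups SE 6 h, SE 12 h, SE 24 h, SE 36 h and SE 72 h), and from Ctr animals at 12, 36 and 72 h, with 3 libraries in each of the 8 groups, and only pilocarpine-treated mice that experienced SE were in the SE groups. The labels do not say that each library came from a separate animal, so the p-values measure the spread between libraries. Library totals ran from 2663936 counts (Ctr 72 h replicate 3) to 30133731 counts (SE 12 h replicate 2). Because whole CA1 was sequenced, a higher or lower level may reflect the number of cells of a type or the RNA per cell. These cannot be told apart here.

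The 8 markers listed for CA1 pyramidal cells were above 0 in each of the 24 libraries, which does not tell CA1 from other hippocampal areas. In 6 libraries, however, transcripts of sensory ganglion neurons stood apart. The 10 marker genes of that list, of which Prph was the most abundant, summed to 1731 CPM in Ctr 72 h replicate 2, 922 CPM in SE 72 h replicate 1, 814 CPM in SE 36 h replicate 3, 643 CPM in SE 12 h replicate 1, 479 CPM in SE 72 h replicate 2 and 329 CPM in SE 6 h replicate 3. The other 18 libraries held at most 74.6 CPM. The Schwann and satellite glial cell list was high in the same libraries, at 508.7 CPM in Ctr 72 h replicate 2 against at most 39.8 CPM in the other 8 Ctr libraries. Several of the 65 genes followed. Col28a1, a collagen found around peripheral glia, was at 57.1 CPM in Ctr 72 h replicate 2 and at most 1.41 CPM in the other Ctr libraries, and it was at 20.3 and 16.5 CPM in SE 72 h replicates 1 and 2 against 0.633 CPM in replicate 3. Of the 65 genes, 28 had their highest Ctr value in Ctr 72 h replicate 2 (43.1%, against 26.1% of all genes tested), and 13 exceeded the next Ctr library there by more than 2-fold (20%, against 6.1%). Counts of calls over the 65 genes are therefore also given without these libraries. For groups of them and pathway lists this is done at 72 h. At the other times leaving these libraries out moved such a count by at most 2 genes. Marker lists are given with all libraries.

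**Figure D1:**
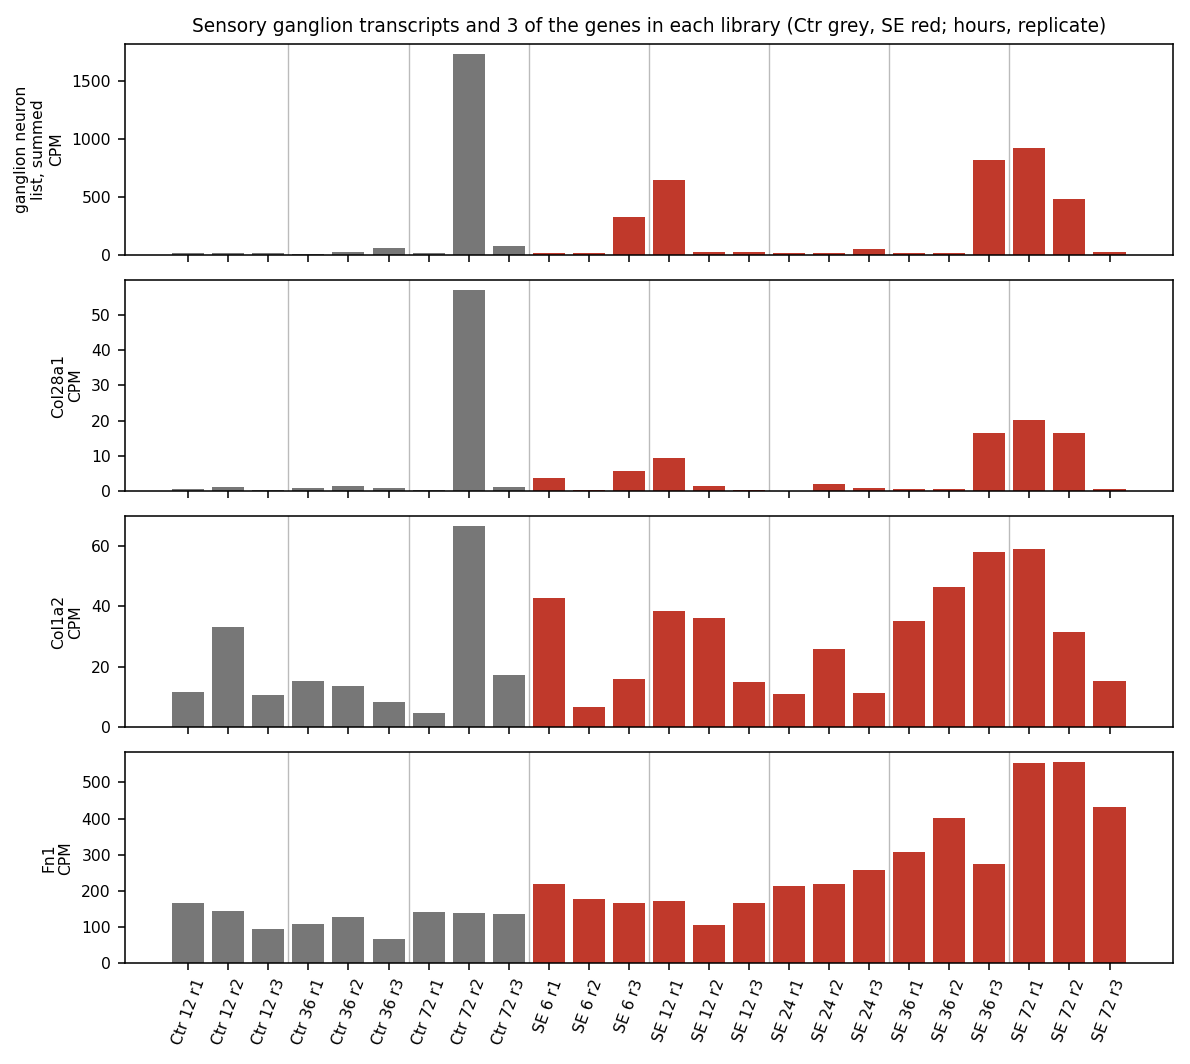
CPM in each of the 24 libraries (x axis: group, hours and replicate) for the summed sensory ganglion neuron list and for Col28a1, Col1a2 and Fn1 (y axes, CPM from 0). Col28a1 is high in the libraries with ganglion transcripts, reaching 57.1 CPM in Ctr 72 h replicate 2, while Fn1 in that library (138 CPM) lies between the other Ctr 72 h values of 141 and 135 CPM.

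As a share of all counts, the 65 genes together made up 0.136% to 0.172% in the Ctr libraries, apart from 0.221% in Ctr 72 h replicate 2. The share was 0.189% to 0.234% after 6 h after SE, 0.247% to 0.293% after 12 h, 0.274% to 0.301% after 24 h, 0.315% to 0.338% after 36 h and 0.327% to 0.426% after 72 h. Every SE library from 12 h onwards was thus above every Ctr library, and at 6 h all 3 were above the 8 Ctr libraries other than Ctr 72 h replicate 2.

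A gene was called when the adjusted p of edgeR's quasi-likelihood test was at most 0.05 and the log2 fold change (log2FC) at least 0.66 in either direction. At 12 h, 21 genes were higher and 5 lower than in Ctr 12 h, that is 32.3% and 7.69% of the 65, beside 13.9% and 11.4% of all genes tested (25.3% in either direction). At 36 h, 29 were higher and 4 lower than in Ctr 36 h, beside 12.7% and 8.96% of all genes (21.7% in either direction). At 72 h, 26 were higher and 2 lower than in Ctr 72 h, beside 15.2% and 4.15% of all genes (19.4% in either direction). The Ctr 72 h libraries carried label numbers 167 to 169 and the SE 72 h libraries 104 to 120. With the range of the library label numbers as a factor, 17 of the 65 were called at 72 h in place of 28. The share of all genes called in that fit is not reported here. No SE 72 h library shared a label range with a Ctr 72 h library. Label range and SE can therefore not be told apart within that comparison. The 6 h and 24 h groups have no Ctr of their own time and were set against the mean of the 3 Ctr groups, so these comparisons share controls with the others. There, 23 genes were higher and 6 lower at 6 h (all genes 15.8% and 6.2%, 22% in either direction), and 28 were higher and 6 lower at 24 h (all genes 15% and 9.24%, 24.2% in either direction).

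The median log2FC of the 65 was 0.50 after 6 h, 0.48 after 12 h, 0.51 after 24 h, 1.01 after 36 h and 0.97 after 72 h (0.89 with genes at or under 3 counts in Ctr set to their bound), while the median of all genes tested stayed between 0.00 and 0.10. Counted over the 5 SE against Ctr comparisons, 50 of the 65 genes were called at least once (76.9%, against 49.9% of all genes) and 11 were higher in all 5 (16.9%, against 3.63%). These 11 were Col3a1, Col4a1, Col4a2, Col5a3, Col12a1, Col16a1, Col18a1, Col20a1, Nid1, Lox and Loxl1. Another 2 were higher at the 3 times with their own controls, 13 in all (20%, against 4.64%). Col25a1 alone was lower in all 5 (all genes 0.595%), and Col11a1 and Lama2 were called in both directions (3.08%, against 1.64%). All SE libraries lay above all Ctr libraries of the comparison for 15 genes at 6 h (all genes 12.9%), 22 after 12 h (24.5%), 17 after 24 h (13.6%), 34 after 36 h (25.8%) and 22 after 72 h (19.4%), and below for 2 (9.27%), 6 (23.2%), 4 (10%), 7 (26.2%) and 2 (13.4%). Without the 6 libraries with ganglion transcripts, the counts were 23 higher and 7 lower at 12 h (all genes in the same fit 15% and 12.8%), 30 and 6 after 36 h (12.3% and 8.94%), 24 and 5 after 6 h (12.7% and 6.86%) and 29 and 8 after 24 h (13.4% and 11%). At 72 h they fell to 17 higher and 1 lower (26.2% and 1.54% of the 65, against 9.86% and 2.43% of all genes), where SE 72 h was left with 1 library, assumed to vary like the other groups. Of the calls with all libraries, 20 higher and 4 lower ones were kept at 6 h, where Col4a3, Col6a5, Col11a1, Col19a1 and Lamb3 were lost, and Col6a3 was lost at 36 h. The 11 calls lost at 72 h were those of Col3a1, Col4a2, Col6a5, Col9a3, Col11a1, Col25a1, Col26a1, Col27a1, Lama2, Lox and Loxl4. The 26 genes higher in the full fit still had a log2FC above 0 and the 2 lower ones below 0. Without the factor for unwanted variation, 17 were higher and 2 lower at 72 h (all genes 11.4% and 4.29%), and the calls of Col3a1, Col4a6, Col6a5, Col11a1, Col12a1, Lama4, Lox, Nid1 and Nid2 were lost. At the other times it lost Col3a1, Col6a3, Col6a4, Col6a5, Col11a1, Col12a1, Lamb3 and Lox after 6 h, Col6a5, Col12a1 and Col15a1 after 12 h, Col4a6, Col11a1 and Lamb3 after 24 h, and Col1a2 and Col6a3 after 36 h. The calls in all 5 comparisons of Col3a1, Col12a1, Nid1 and Lox thus depended on this factor.

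**Figure D2:**
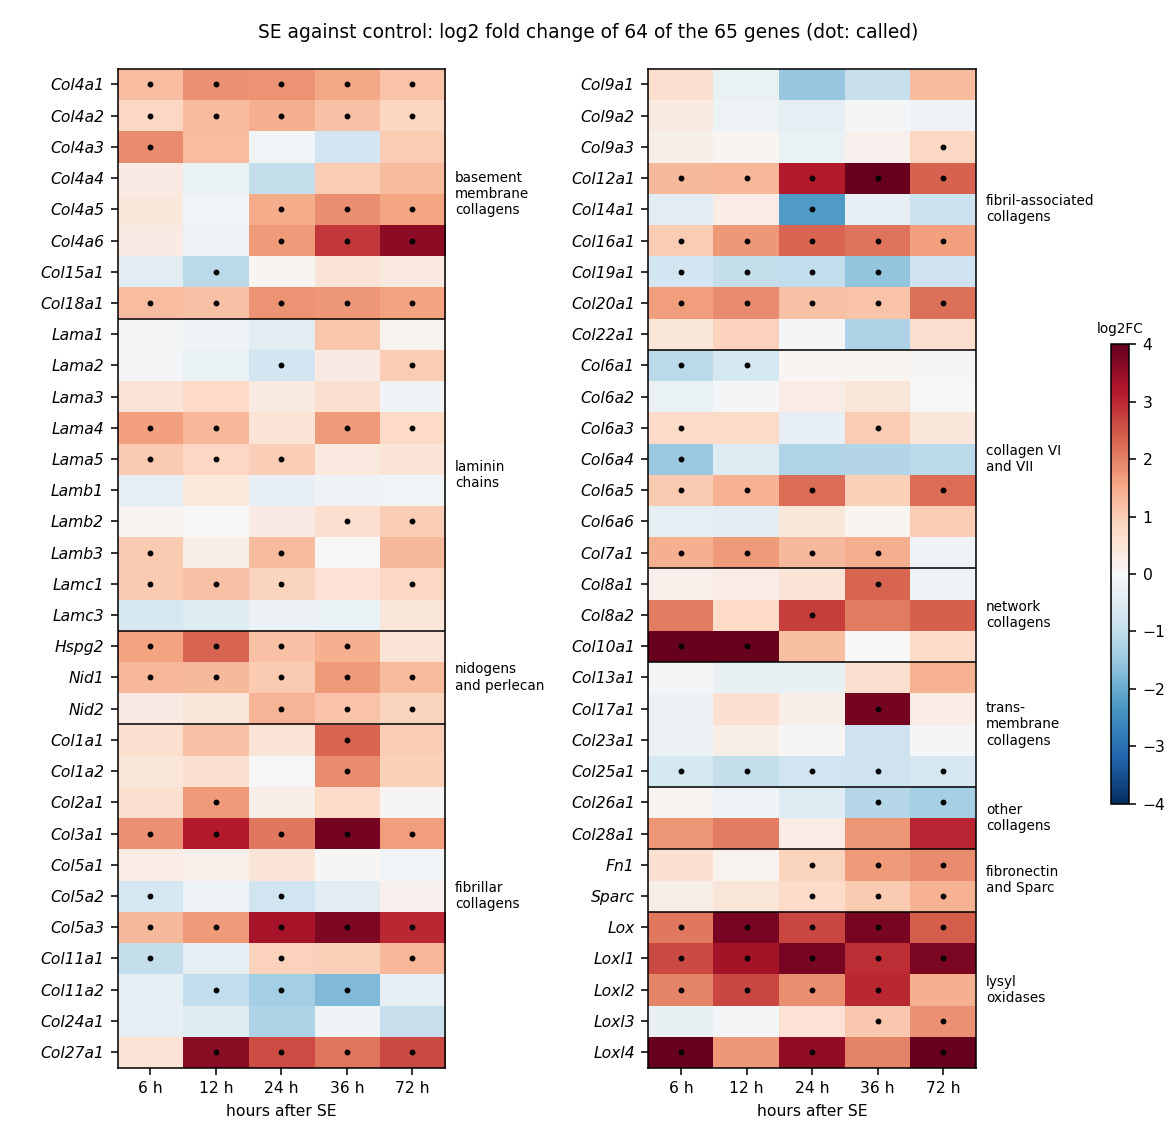
log2FC of SE against Ctr (colour, scale limited to −4 to 4) for 64 of the 65 genes (rows, grouped by role) from 6 h (left) to 72 h (right) (columns), with a dot where the gene was called. Lox, Loxl1 and Loxl2 are red in all columns, Col4a5 and Col4a6 turn red at 24 h, and the 11 genes higher at all 5 times carry 5 dots each.

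Among the 8 basement membrane collagens, 4 were higher at 6 h, 3 after 12 h and 5 each at 24, 36 and 72 h (4 at 72 h without the libraries with ganglion transcripts), and Col15a1 was lower at 12 h. The shares higher were 50% at 6 h, 37.5% at 12 h and 62.5% later, against 12.7% to 15.8% of all genes. Col4a1 and Col4a2 encode the chains of the collagen IV that lines nearly all vessels. Col4a1 ranged from 83.6 to 118 CPM over the 9 Ctr libraries, with a median of 100.3 CPM. After SE it was at 224, 255 and 226 CPM at 6 h, 257, 307 and 479 CPM at 12 h, 377, 266 and 402 CPM at 24 h, 318, 297 and 278 CPM at 36 h, and 259, 238 and 149 CPM at 72 h. No SE library overlapped the Ctr range. The log2FC was 1.81 ± 0.21 (standard error, as for all log2FC below) at 12 h (adjusted p = 2.4e-06), 1.55 ± 0.21 after 36 h and 1.13 ± 0.21 after 72 h.

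Col4a2 moved alongside Col4a1 with a smaller log2FC at each time. Its Ctr libraries ran from 105 to 147 CPM (median 131 CPM), and its SE libraries were at 203, 241.5 and 231 CPM at 6 h, 231, 291 and 388 CPM at 12 h, 337, 297 and 404 CPM at 24 h, 318, 267 and 321 CPM at 36 h, and 198, 307 and 161 CPM at 72 h. All 15 SE libraries lay above all 9 Ctr libraries. The log2FC was 1.27 ± 0.20 after 12 h, 1.16 ± 0.20 after 36 h and 0.86 ± 0.20 after 72 h (adjusted p = 0.0033). Without the libraries with ganglion transcripts Col4a2 was no longer called at 72 h, and neither was it when SE 72 h replicate 2 alone was left out.

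Col4a5 and Col4a6 encode chains of a collagen IV network that is less widespread. Neither was called at 6 or 12 h, although Col4a5 was at 13.7 CPM in 1 library at 6 h, and both were called from 24 h onwards. Col4a5 lay between 5.53 and 7.33 CPM in the Ctr libraries (median 6.69 CPM), at 5.12, 4.87 and 8.05 CPM at 12 h, and then at 16.8, 18.3 and 18.6 CPM at 24 h, 25.4, 22.7 and 20.5 CPM at 36 h, and 21.01, 19.8 and 17.7 CPM at 72 h. At 24, 36 and 72 h its groups did not overlap with Ctr. The log2FC went from −0.10 ± 0.25 after 12 h to 1.86 ± 0.25 after 36 h, and the test of that difference gave 1.95 ± 0.35 (adjusted p = 0.00546). Col4a6 had a Ctr median of 1.51 CPM, with 12.4 CPM in Ctr 72 h replicate 2 and at most 3.25 CPM in the other Ctr libraries. It was at 3.44, 2.06 and 0.764 CPM at 6 h, 1.54, 2.35 and 1.27 CPM at 12 h, 5.84, 6.36 and 3.99 CPM at 24 h, 10.7, 10.2 and 16.5 CPM at 36 h, and 13.6, 16.3 and 14.9 CPM at 72 h. Its log2FC was 2.84 ± 0.53 after 36 h and 3.59 ± 0.66 after 72 h, where it was no longer called without the factor for unwanted variation in the fit. With a ganglion score in the fit, it was no longer called at 24 h (log2FC 1.32) or 72 h (log2FC 1.97).

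Col18a1, whose protein is the precursor of endostatin, was higher at all 5 times, with a log2FC from 1.18 ± 0.35 after 12 h to 1.80 ± 0.26 after 24 h. Its call at 12 h was lost without Ctr 12 h replicate 1 or replicate 3, and at 72 h without Ctr 72 h replicate 1. Col15a1, the other collagen with an endostatin-like end, was at 5.37, 2.82 and 2.23 CPM at 12 h against 5.49, 6.43 and 9.74 CPM in Ctr 12 h. All 3 SE libraries were below Ctr (log2FC −1.09 ± 0.31, adjusted p = 0.0091), and the call was lost without Ctr 12 h replicate 3, SE 12 h replicate 3 or the factor for unwanted variation. Col4a3 was called only at 6 h (log2FC 1.89 ± 0.54) at levels under 4 CPM, a call lost without the libraries with ganglion transcripts (log2FC 1.41, adjusted p = 0.103), and Col4a4 was called at none of the 5 times.

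The collagen IV genes lie in head-to-head pairs on opposite strands. In GRCm39 the annotated starts of Col4a1 (chromosome 8, minus strand, 11362826) and Col4a2 (plus strand, 11362509) lie so that the transcripts overlap by 318 bases, those of Col4a4 and Col4a3 on chromosome 1 overlap by 104 bases, and those of Col4a6 and Col4a5 on the X chromosome are 1281 bases apart. Counting did not use strand, so reads in the overlaps cannot be assigned to either gene of a pair. As the most abundant pair, Col4a1 and Col4a2 are represented by a short piece from just upstream of Col4a1, shown with its CCAAT motif in capitals (read as ATTGG on this strand). It is on the minus strand at chr8:11362954-11362983.
Col4a1 upstream: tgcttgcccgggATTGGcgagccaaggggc

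The 11 laminin chains gave smaller changes. At most 4 were higher at any time (4 after 6 h, 3 after 12 h, 4 after 24 h, 3 after 36 h and 4 after 72 h, or 3 at 72 h without the libraries with ganglion transcripts), and their median log2FC lay between 0.36 and 0.80. These are 27.3% to 36.4% of the 11, against 12.7% to 15.8% of all genes. Lamc1, the gamma chain shared by most laminins, ran from 30.4 to 49.0 CPM in the Ctr libraries (median 40.8 CPM) and from 57.2 to 97.5 CPM in the SE libraries, with no overlap at any of the 5 times. Its log2FC was 1.17 ± 0.16 after 12 h and 0.83 ± 0.16 after 72 h, the latter call being lost without SE 72 h replicate 1. At 36 h it was 0.56 ± 0.16 (adjusted p = 0.010), short of the threshold on size. Lama4, the alpha chain of endothelial laminin, was at 22.3, 20.6 and 19.4 CPM at 6 h, against at most 8.99 CPM in 8 Ctr libraries and 26.4 CPM in Ctr 72 h replicate 2. It was called at 6, 12, 36 and 72 h, with a log2FC of 1.63 ± 0.19 after 6 h and 0.80 ± 0.26 after 72 h. The 72 h call was lost without Ctr 72 h replicate 1 or 3 or SE 72 h replicate 1.

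Lama5, which endothelial basement membranes also contain, was called at 6, 12 and 24 h (log2FC 1.04 ± 0.20, 0.83 ± 0.25 and 0.99 ± 0.20). Its 12 h call was lost without Ctr 12 h replicate 3 or SE 12 h replicate 3. Lamb2, a beta chain of vascular and synaptic laminins, changed late: it was at 42.7, 51.2 and 58.9 CPM at 12 h (log2FC 0.01 ± 0.17), 89.3, 62.03 and 69.9 CPM at 36 h (0.67 ± 0.17) and 91.5, 93.1 and 98.3 CPM at 72 h (0.98 ± 0.17, adjusted p = 0.00024), against 40.3 to 61.7 CPM in the Ctr libraries. The 36 h call was lost without Ctr 36 h replicate 3 or SE 36 h replicate 1. Lama2, the alpha chain made by astrocytes and mural cells, was lower at 24 h (log2FC −0.77 ± 0.28) and higher at 72 h (1.02 ± 0.33), and both calls depended on single libraries: the first was lost without SE 24 h replicate 1 or 3, the second without Ctr 72 h replicate 1 or 3 or SE 72 h replicate 1, and also without the libraries with ganglion transcripts (log2FC 0.85, adjusted p = 0.155). Lamb1 was called at none of the 5 times (log2FC between −0.40 and 0.42), nor was Lama1, Lama3 or Lamc3. Lamb3, a beta chain of epithelial laminin, was called at 6 and 24 h (log2FC 1.06 ± 0.35 and 1.26 ± 0.35). The call at 6 h was lost without SE 6 h replicate 2 or 3 or Ctr 72 h replicate 2, and that at 24 h without SE 24 h replicate 3. Lamb3 overlaps Hsd11b1 and G0s2 in the annotation.

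Perlecan and the nidogens, which tie the laminin and collagen IV networks together, included the largest early change of a basement membrane gene by log2FC at 12 h. Hspg2 was at 15.2 to 22.2 CPM in 8 Ctr libraries and at 55.9 CPM in Ctr 72 h replicate 2. After SE it was at 64.1, 57.4 and 75.2 CPM at 6 h, 69.8, 75.9 and 111 CPM at 12 h, 53.4, 45.0 and 45.1 CPM at 24 h, 53.3, 63.5 and 52.2 CPM at 36 h, and 48.5, 36.0 and 28.9 CPM at 72 h. The groups were apart at 12 and 36 h and overlapped at 72 h, where Ctr 72 h replicate 2 was above all 3 SE libraries. The log2FC was 2.32 ± 0.21 after 12 h (adjusted p = 1.6e-07), 1.43 ± 0.21 after 36 h and 0.51 ± 0.21 after 72 h, which was not called. The fall between 12 and 72 h tested at −1.82 ± 0.29 (adjusted p = 0.000356).

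Nid1 was higher at all 5 times, with 37.8, 28.2 and 31.1 CPM at 6 h, 38.5, 25.1 and 34.5 CPM at 12 h, 24.96, 25.9 and 29.7 CPM at 24 h, 32.7, 41.9 and 46.8 CPM at 36 h, and 51.7, 27.4 and 20.4 CPM at 72 h, against 8.25 to 17.1 CPM in 8 Ctr libraries and 34.3 CPM in Ctr 72 h replicate 2. Its log2FC stayed between 1.03 ± 0.18 (24 h) and 1.72 ± 0.23 (36 h). Nid2 was called later, at 24, 36 and 72 h (log2FC 1.35 ± 0.19, 1.13 ± 0.25 and 0.89 ± 0.26). Its 72 h call was lost without Ctr 72 h replicate 1 or 3 or SE 72 h replicate 1.

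**Figure D3:**
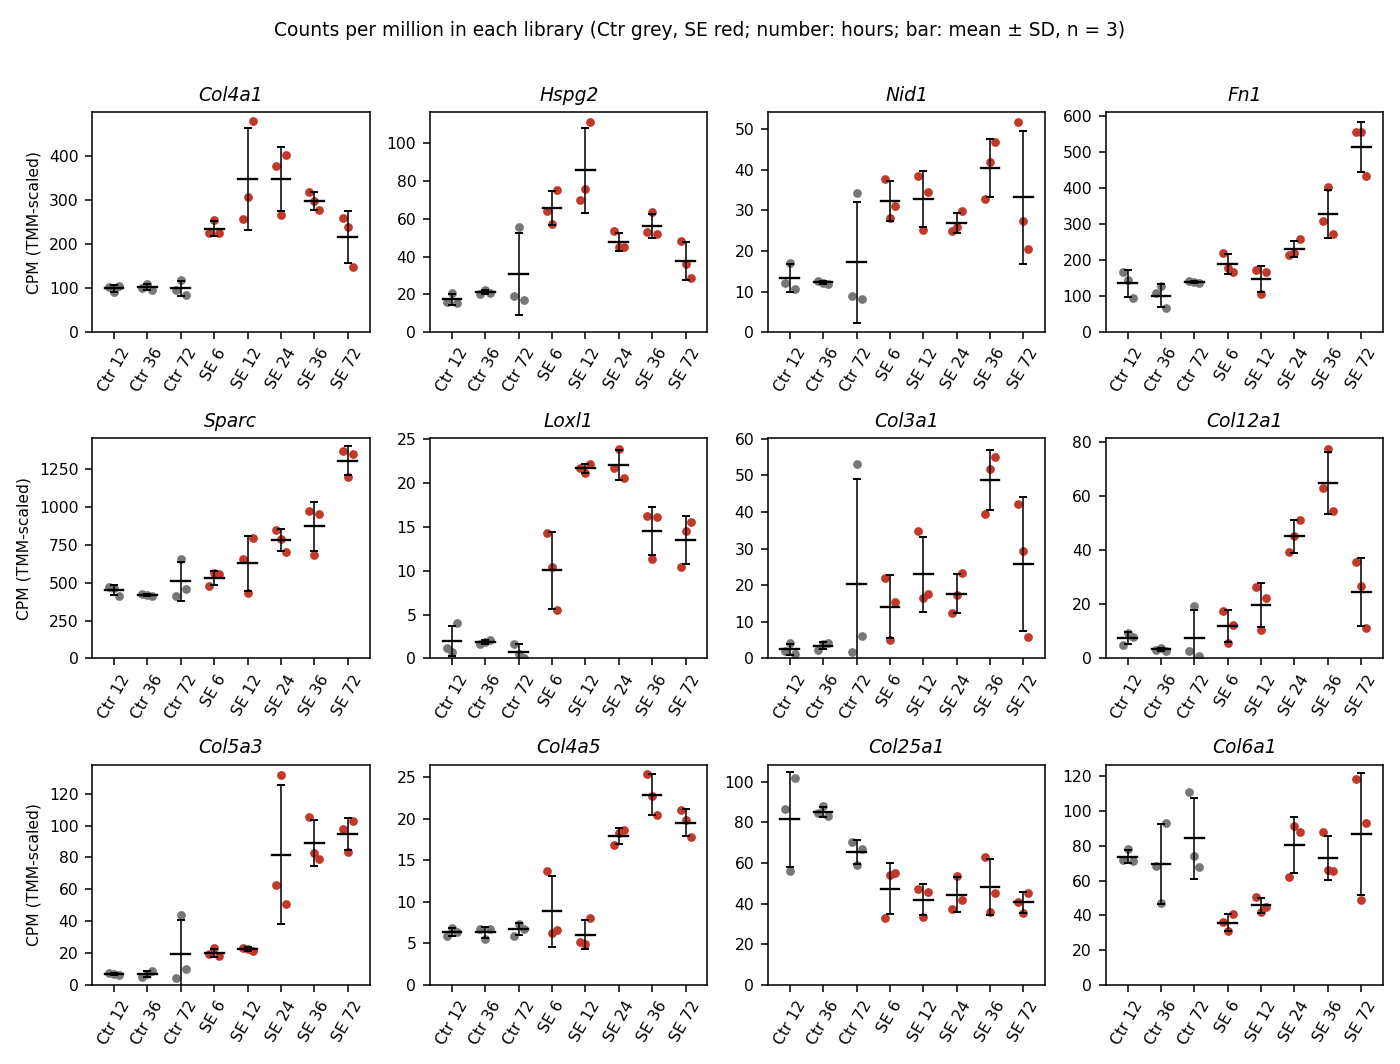
CPM of 12 of the genes in each library (points), by group on the x axis (hours), with the group mean and SD as bars (n = 3) and the y axes starting at 0. Col4a1, Hspg2 and Loxl1 are up at 6 and 12 h, Fn1 and Sparc climb to 72 h, Col4a5 separates from Ctr at 24 h, and 1 high Ctr 72 h point stands out for Hspg2, Nid1, Col3a1, Col12a1 and Col5a3.

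The fibrillar collagens, which assemble into the fibrils of connective tissue, moved in both directions: of 11 genes, 2 were higher and 2 lower at 6 h, 4 and 1 after 12 h, 4 and 2 after 24 h, 5 and 1 after 36 h, and 4 and 0 after 72 h. The share higher at 6 h, 18.2%, was near that of all genes (15.8%). At the later times it was 36.4%, 36.4%, 45.5% and 36.4%, against 13.9%, 15%, 12.7% and 15.2% of all genes. From 6 to 72 h the shares lower were 18.2%, 9.09%, 18.2%, 9.09% and 0%, against 6.2%, 11.4%, 9.24%, 8.96% and 4.15%. At 72 h 1 was higher and 1 lower without the libraries with ganglion transcripts. Col3a1 lay between 1.16 and 6.00 CPM in 8 Ctr libraries, while Ctr 72 h replicate 2 reached 53.2 CPM. In SE libraries it was at 22.1, 5.09 and 15.4 CPM at 6 h, 34.8, 16.5 and 17.6 CPM at 12 h, 12.5, 17.3 and 23.3 CPM at 24 h, 39.5, 51.7 and 54.9 CPM at 36 h, and 42.1, 29.4 and 5.90 CPM at 72 h. The 12 h and 36 h groups did not overlap with their controls, and the 72 h groups did. The log2FC was 3.16 ± 0.58 after 12 h and 3.82 ± 0.57 after 36 h (adjusted p = 3.5e-05). At 72 h it was 1.67 ± 0.59 (adjusted p = 0.040), and that call was lost without the libraries with ganglion transcripts, or without any one of Ctr 72 h replicate 1, Ctr 72 h replicate 3, SE 72 h replicate 1 and SE 72 h replicate 2.

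The type I collagen genes were called at 36 h only. Col1a1 had a Ctr range of 5.06 to 20.97 CPM (median 8.43 CPM). It was at 38.4, 4.80 and 6.88 CPM at 6 h, 18.7, 45.9 and 10.9 CPM at 12 h, 8.28, 24.9 and 10.7 CPM at 24 h, 44.2, 45.5 and 43.2 CPM at 36 h, and 39.8, 19.3 and 9.21 CPM at 72 h. Only the 36 h libraries lay together above Ctr, and the other SE groups each held 1 library well above the rest. In those libraries the summed markers of leptomeningeal and perivascular fibroblasts were also the highest of their group, at 173 CPM in SE 6 h replicate 1, 126 CPM in SE 12 h replicate 2, 88.8 CPM in SE 24 h replicate 2 and 100.3 CPM in SE 72 h replicate 1. Their part was not tested. The log2FC at 36 h was 2.32 ± 0.69 for Col1a1 (adjusted p = 0.015) and 1.88 ± 0.61 for Col1a2 (adjusted p = 0.023); the Col1a1 call was lost without Ctr 36 h replicate 2 or 3, and the Col1a2 call without Ctr 36 h replicate 2 or 3 or SE 36 h replicate 3. Col1a2 was at 66.5 CPM in Ctr 72 h replicate 2, above every SE library.

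Col5a3, a minor chain of type V collagen that regulates fibril assembly, had a Ctr median of 7.05 CPM, at most 9.75 CPM in 8 Ctr libraries, and 43.7 CPM in Ctr 72 h replicate 2. It was at 19.3, 23.1 and 18.05 CPM at 6 h, 23.4, 22.5 and 21.4 CPM at 12 h, 63.0, 132 and 50.8 CPM at 24 h, 106, 82.9 and 79.0 CPM at 36 h, and 97.8, 83.3 and 103 CPM at 72 h. From 24 h all SE libraries were above even the high Ctr library. The log2FC went from 1.69 ± 0.33 after 12 h to 3.73 ± 0.35 after 36 h, a difference of 2.04 ± 0.47 (adjusted p = 0.0225), and was 3.02 ± 0.37 after 72 h. Col5a1 was called at none of the times, and Col5a2 was lower at 6 and 24 h (log2FC −0.70 ± 0.22 and −0.80 ± 0.22), the 6 h call being lost without SE 6 h replicate 1 or 2 or Ctr 12 h replicate 1.

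Col27a1, a fibrillar collagen of cartilage, ran from 7.84 to 16.9 CPM in Ctr, 19.3, 19.004 and 9.60 CPM at 6 h, 38.8, 258 and 45.4 CPM at 12 h, 40.1, 89.8 and 64.6 CPM at 24 h, 31.4, 84.3 and 46.4 CPM at 36 h, and 131, 37.1 and 31.5 CPM at 72 h. All SE libraries from 12 h onwards were above all Ctr libraries, with 1 library far above the others at 12 h and at 72 h. The log2FC was 3.60 ± 0.66 after 12 h (adjusted p = 0.00031), 2.14 ± 0.63 after 36 h and 2.64 ± 0.68 after 72 h; the 36 h call was lost without Ctr 36 h replicate 2 or SE 36 h replicate 2, and the 72 h call without SE 72 h replicate 1 or without the libraries with ganglion transcripts (log2FC 1.33). Without SE 12 h replicate 2 the 12 h value fell to 2.18 and was still called. It was the only one of the 65 called between 6 and 12 h after SE (log2FC 2.84 ± 0.64), a call lost without SE 12 h replicate 2 (log2FC 1.41), without SE 6 h replicate 3 (log2FC 2.56) or with only the compared groups in the fit.

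Col11a2, a chain of the type XI collagen of thin fibrils, went down. It was between 23.7 and 57.3 CPM in Ctr (median 46.9 CPM), at 27.97, 31.6 and 34.1 CPM at 6 h, 11.2, 17.3 and 22.9 CPM at 12 h, 18.3, 10.6 and 19.5 CPM at 24 h, 12.4, 17.9 and 16.5 CPM at 36 h, and 24.6, 43.9 and 27.0 CPM at 72 h. All 9 libraries from 12 to 36 h were below all Ctr libraries. The log2FC was −0.97 ± 0.24 after 12 h, −1.75 ± 0.25 after 36 h (adjusted p = 2.0e-05) and −0.33 ± 0.25 after 72 h, so it was higher relative to Ctr at 72 h than at 36 h by 1.42 ± 0.35 (adjusted p = 0.022); without the libraries with ganglion transcripts this last difference was not called. Its partner chain Col11a1 was at 12.9, 4.80 and 6.96 CPM at 6 h and 36.2, 31.8 and 22.1 CPM at 24 h, against 6.37 to 29.9 CPM in Ctr. It was called in opposite directions, lower at 6 h (log2FC −0.94 ± 0.36) and higher at 24 h (0.92 ± 0.31) and 72 h (1.33 ± 0.42). The groups overlapped at 6 and 24 h. The 6 h call was lost without any one of SE 6 h replicates 2 and 3, Ctr 12 h replicate 3, Ctr 36 h replicate 2 and Ctr 72 h replicates 1 and 2; the 24 h call without SE 24 h replicate 1 or 2 or Ctr 72 h replicate 3; and the 72 h call without Ctr 72 h replicate 3 or SE 72 h replicate 2, or without the libraries with ganglion transcripts.

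Fibril-associated collagens sit on the surface of fibrils or at basement membranes. Of these 9 genes, 3 were higher at each of the 6, 12, 24 and 36 h comparisons and 4 after 72 h, always Col12a1, Col16a1 and Col20a1, joined by Col9a3 after 72 h, whose call was lost without Ctr 72 h replicate 2 and without all 6 libraries with ganglion transcripts (log2FC 0.52). The shares higher were 33.3% from 6 to 36 h and 44.4% after 72 h, against 12.7% to 15.8% of all genes. Lower calls numbered 1 at 6, 12 and 36 h (11.1%), 2 at 24 h (22.2%) and 0 at 72 h. Of all genes, 6.2%, 11.4% and 8.96% were lower at 6, 12 and 36 h, 9.24% at 24 h and 4.15% at 72 h. The median log2FC of the group was −0.25 at 24 h and −0.06 at 36 h. Col12a1 had a Ctr median of 4.02 CPM and a Ctr range of 0.750 to 19.4 CPM, the highest being Ctr 72 h replicate 2. It was at 17.7, 5.88 and 12.4 CPM at 6 h, 26.4, 10.5 and 22.4 CPM at 12 h, 39.3, 45.2 and 51.4 CPM at 24 h, 63.1, 77.5 and 54.7 CPM at 36 h, and 35.8, 26.9 and 11.2 CPM at 72 h. It peaked at 36 h, where all libraries were far above Ctr. The log2FC was 1.33 ± 0.39 after 12 h, 4.31 ± 0.44 after 36 h (adjusted p = 3.6e-07) and 2.36 ± 0.45 after 72 h. The 12 h call was lost without Ctr 12 h replicate 1, SE 12 h replicate 1 or the factor for unwanted variation, or with a ganglion score (log2FC 0.92). The 6 h call was lost without SE 6 h replicate 1 or the factor, and the 72 h call without the factor. The difference between 12 and 36 h was 2.99 ± 0.57 (adjusted p = 0.00824).

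Col16a1 was at 20.1 to 42.9 CPM in Ctr and 45.2 to 167 CPM over the 15 SE libraries, without overlap at any time. Its log2FC ran from 1.01 ± 0.17 after 6 h to 2.33 ± 0.16 after 24 h (adjusted p = 4.8e-10). Col20a1 was higher by 1.15 ± 0.24 after 36 h to 2.19 ± 0.27 after 72 h, also without overlap. Col19a1, a collagen of hippocampal interneurons and their synapses, was lower at 4 of the 5 times. It was at 9.94 CPM as a Ctr median (range 4.87 to 10.8 CPM), 5.51, 5.49 and 5.44 CPM at 6 h, 5.81, 4.18 and 5.66 CPM at 12 h, 5.73, 6.45 and 2.03 CPM at 24 h, 3.56, 3.39 and 2.62 CPM at 36 h, and 3.49, 5.82 and 5.16 CPM at 72 h. Its log2FC was −0.97 ± 0.32 after 12 h and −1.57 ± 0.33 after 36 h (adjusted p = 0.0011), and −0.84 ± 0.33 after 72 h was not called. The 6 h call was lost without any one of the SE 6 h libraries, the 12 h call without Ctr 12 h replicate 3 or SE 12 h replicate 2, and the 24 h call without SE 24 h replicate 3. Col14a1, a fibril-associated collagen of connective tissue, was at 0.637, 0.915 and 0.561 CPM at 24 h, below all Ctr libraries (1.86 to 11.4 CPM, log2FC −2.26 ± 0.61).

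Type VI collagen forms beaded filaments, and type VII anchoring fibrils. Col6a1 was lower at 6 and 12 h, and from 24 h on its libraries overlapped with Ctr. It was at 36.2, 30.8 and 40.6 CPM at 6 h, 50.3, 41.7 and 45.0 CPM at 12 h, 61.8, 91.5 and 87.9 CPM at 24 h, 87.8, 65.9 and 65.4 CPM at 36 h, and 118, 48.9 and 93.3 CPM at 72 h, against 47.1 to 111 CPM in Ctr. All 3 libraries at 6 h were below all Ctr libraries (log2FC −1.08 ± 0.23, adjusted p = 0.0011). The 12 h value of −0.69 ± 0.27 was close to the threshold, and its call was lost when any one of the 6 libraries compared was left out. Col6a4 was at 0.879, 0.980 and 2.89 CPM at 6 h against 1.87 to 11.01 CPM in Ctr (log2FC −1.49 ± 0.58), a call that did not hold without SE 6 h replicate 1 or 2 or any one of 6 of the Ctr libraries. Col6a3 was called higher at 6 and 36 h (0.76 ± 0.25 and 1.01 ± 0.32), the first call being lost without SE 6 h replicate 1 or Ctr 72 h replicate 1 and the second without Ctr 36 h replicate 2 or 3 or SE 36 h replicate 3. Col6a5 was called higher at 6, 12, 24 and 72 h; the 72 h call was lost without Ctr 72 h replicate 2 or all libraries with ganglion transcripts (log2FC 1.13), and the 6 h call without that library or any one of the SE 6 h libraries. All but the 24 h call were lost without the factor for unwanted variation. Col7a1 was at 15.8 to 31.1 CPM in all SE libraries from 6 to 36 h against 4.95 to 11.4 CPM in Ctr, and at 9.59, 11.3 and 6.43 CPM at 72 h. Its log2FC was 1.69 ± 0.26 after 12 h, 1.46 ± 0.26 after 36 h and −0.15 ± 0.27 after 72 h, and the difference between 72 and 36 h was −1.61 ± 0.37 (adjusted p = 0.0179).

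Transmembrane collagens span the cell surface and shed their outer part. Col25a1, a neuronal collagen known from amyloid plaques, was lower in all 5 comparisons. It was between 56.1 and 102 CPM in Ctr (median 83.1 CPM), at 32.8, 54.0 and 55.3 CPM at 6 h, 46.9, 33.3 and 45.6 CPM at 12 h, 37.5, 53.8 and 42.0 CPM at 24 h, 63.1, 35.9 and 45.1 CPM at 36 h, and 40.7, 35.5 and 45.4 CPM at 72 h. Each SE group lay below its controls without overlap. The log2FC was −0.96 ± 0.23 after 12 h (adjusted p = 0.0026), −0.83 ± 0.23 after 36 h and −0.69 ± 0.23 after 72 h (adjusted p = 0.034). The 72 h call was lost without Ctr 72 h replicate 1 or 3, SE 72 h replicate 1 or 2 or the libraries with ganglion transcripts, the 36 h call without SE 36 h replicate 2 and the 6 h call without SE 6 h replicate 1 or Ctr 12 h replicate 3. The summed CPM of 10 neuronal markers, Camk2a the most abundant, was also lower in SE groups, with a mean of 9161 CPM at 12 h against 14001.9 CPM in Ctr 12 h (2 of 10 called lower) and 8155 CPM at 72 h against 12153 CPM in Ctr 72 h (3 of 10 called lower); their part in the Col25a1 result was not tested.

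Col26a1 was lower at 36 and 72 h, at 1.78, 1.81 and 1.31 CPM and 2.31, 1.81 and 2.63 CPM against 3.25 to 8.02 CPM in Ctr (log2FC −1.14 ± 0.37 and −1.32 ± 0.37). The 36 h call was lost without Ctr 36 h replicate 1 or SE 36 h replicate 3, and the 72 h call without Ctr 72 h replicate 3 or the libraries with ganglion transcripts. Among the network collagens, Col8a1, known from vessel walls, was called higher at 36 h only (log2FC 2.33 ± 0.50), and Col8a2 after 24 h only, a call lost without SE 24 h replicate 2. Col10a1 was at 26, 43 and 184 counts at 6 h and 15, 1785 and 53 counts at 12 h, against at most 4 counts in any Ctr 12 h library, and at 18 counts or fewer in every library from 24 h on. It lies inside Nt5dc1 on the opposite strand, and reads of the pair cannot be told apart in counts made without strand. Col17a1 was called at 36 h only, at 36, 37 and 6 counts, and the call was lost without Ctr 36 h replicate 2. Col2a1 was called at 12 h only (log2FC 1.71 ± 0.37).

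Fibronectin, an adhesive glycoprotein that integrins bind, and Sparc, a collagen-binding protein made by glia and vessels, were highest at 72 h. Fn1 was between 67.5 and 168 CPM in Ctr (median 135 CPM), at 219, 178 and 168 CPM at 6 h, 172, 106 and 166 CPM at 12 h, 215, 221 and 257 CPM at 24 h, 309, 402 and 274 CPM at 36 h, and 554, 555 and 433 CPM at 72 h. From 24 h all SE libraries were above all Ctr libraries. The log2FC was 0.14 ± 0.23 after 12 h, 1.69 ± 0.24 after 36 h and 1.89 ± 0.24 after 72 h (adjusted p = 6.2e-06), and it was larger at 36 h than at 12 h by 1.55 ± 0.33 (adjusted p = 0.0146). Sparc was between 412 and 472 CPM in 8 Ctr libraries and at 659 CPM in Ctr 72 h replicate 2. It was at 481, 563 and 561 CPM at 6 h, 656, 435 and 797 CPM at 12 h, 847, 791 and 703 CPM at 24 h, 976, 685 and 958 CPM at 36 h, and 1369.9, 1197 and 1354 CPM at 72 h. All 3 libraries at 72 h were above every other library of the study. The log2FC was 0.48 ± 0.16 after 12 h, 1.05 ± 0.17 after 36 h and 1.40 ± 0.17 after 72 h (adjusted p = 3.1e-06).

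Markers of glia were also called. The 10 microglial markers (Csf1r most abundant) summed to 366.8 ± 7.85 CPM (SD, n = 3) in Ctr 12 h and 289 ± 43.7 CPM at 12 h after SE, 410.4 ± 26.4 and 675 ± 53.9 CPM at 36 h, and 374 ± 50.7 and 1690.3 ± 319 CPM at 72 h. Of the 10, 6 were lower at 6 h and 3 after 12 h with none higher, 4 were higher and 2 lower after 24 h, 6 and 2 after 36 h, and 9 and 0 after 72 h. The 8 oligodendrocyte markers (Mbp most abundant) summed to 5721 to 6068 CPM at 6 h against 2555 to 4568 CPM in Ctr, and varied from 1483 to 4138 CPM within SE 12 h. Of these, 4 were higher at 6 h, 4 after 24 h, 1 after 36 h and 3 after 72 h, and 1 was lower after 12 h. The 10 astrocyte markers (Gfap most abundant) summed to 5422 ± 425 CPM in Ctr 72 h and 14145 ± 789 CPM at 72 h after SE. Gfap alone went from 254.4 ± 36.7 to 8150 ± 933 CPM and the other 9 from 5168 ± 398 to 5995 ± 251 CPM, with 4 of 10 called higher and none lower. At 24 h 2 were higher and 5 lower, and at 36 h 4 were higher and 4 lower, where the 9 other than Gfap summed to 3169 ± 386 CPM against 5382 ± 503 CPM in Ctr 36 h. Endothelial markers (Flt1 most abundant) summed to 403 ± 44.2 CPM in Ctr 72 h and 513 ± 21.9 CPM at 72 h after SE, and mural cell markers (Rgs5) to 316 ± 9.83 and 379.8 ± 17.6 CPM. Of 10 endothelial markers, 4 were called higher and 4 lower at 6 h, 5 and 3 after 12 h, 5 and 3 after 24 h, 3 and 3 after 36 h, and 2 and 0 after 72 h. Of 9 mural markers, 2 or 3 were higher at each time, and 1 was lower at 6 and 12 h. Markers of leptomeningeal and perivascular fibroblasts (Cemip most abundant) summed to 37.9 ± 7.04 CPM in Ctr 36 h and 62.03 ± 10.3 CPM at 36 h after SE, with 1 of 9 called higher. They reached 173 CPM in SE 6 h replicate 1 and 126 CPM in SE 12 h replicate 2, Slc22a2, Slc47a1, Igf2 or Slc22a6 was at 0 in part of the libraries, and Lum was at 0 in none. Of 10 listed markers of infiltrating leukocytes, 4 were tested. Of these, 1 was called higher at 6 and 24 h and 2 at 12, 36 and 72 h, and 0 lower. They summed to 23.1, 11.1 and 1.02 CPM at 72 h after SE and 0.169, 13.6 and 4.12 CPM in Ctr 72 h. In each group that held a library with ganglion transcripts, such a library had the highest sum. Outside 72 h these were SE 36 h replicate 3 (9.86 CPM), SE 12 h replicate 1 (5.32 CPM) and SE 6 h replicate 3 (4.25 CPM). The part of all these cells in the results was not tested.

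The lysyl oxidases had the largest median log2FC of the groups of 5 or more genes, from 2.11 after 6 h to 2.96 after 36 h; at 72 h it was 2.43, or 1.81 with Loxl4 at its bound. Of 5, 4 were higher at 6, 24, 36 and 72 h and 3 after 12 h, that is 80% and 60%, against 12.7% to 15.8% of all genes. Without the libraries with ganglion transcripts 2 were higher at 72 h. Loxl1, which crosslinks elastic fibres, was at 0 to 3.98 CPM in Ctr (median 1.65 CPM), 14.2, 10.4 and 5.48 CPM at 6 h, 21.7, 21.1 and 22.1 CPM at 12 h, 21.7, 23.8 and 20.5 CPM at 24 h, 16.2, 11.3 and 16.1 CPM at 36 h, and 10.4, 14.5 and 15.5 CPM at 72 h. It overlapped with Ctr at no time. The log2FC was 3.31 ± 0.45 after 12 h, 2.96 ± 0.46 after 36 h and 3.78 ± 0.56 after 72 h (adjusted p = 3.8e-05). Lox had a Ctr median of 0.663 CPM, at most 1.18 CPM in 8 Ctr libraries and 5.12 CPM in Ctr 72 h replicate 2. It was at 3.84, 2.35 and 1.91 CPM at 6 h, 8.15, 5.40 and 11.3 CPM at 12 h, 2.65, 4.49 and 5.11 CPM at 24 h, 9.11, 5.75 and 7.81 CPM at 36 h, and 8.58, 2.58 and 1.75 CPM at 72 h. At 12 and 36 h the groups were apart (log2FC 3.79 ± 0.76 at both times). At 72 h they overlapped, and the log2FC of 2.43 ± 0.90 (adjusted p = 0.049) was no longer called without the libraries with ganglion transcripts or without any one of Ctr 72 h replicates 1 and 3 and SE 72 h replicate 1.

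Loxl2 was called at 6, 12, 24 and 36 h (log2FC between 1.86 ± 0.40 after 24 h and 3.03 ± 0.54 after 36 h), and its 72 h value of 1.41 ± 0.56 was not called. Loxl3 changed only late. It was at 4.80 to 7.87 CPM in Ctr, 6.46, 4.74 and 7.01 CPM at 12 h, 15.1, 12.1 and 11.5 CPM at 36 h, and 23.7, 26.04 and 21.9 CPM at 72 h (log2FC 1.81 ± 0.26, adjusted p = 3.2e-05). Loxl4 was at 0 counts in all 3 Ctr 72 h libraries and at 17, 7 and 15 counts at 72 h after SE. With the Ctr level set to 3 counts per library it was at least 1.27-fold higher. Its 72 h call was lost without Ctr 72 h replicate 1 and without the libraries with ganglion transcripts, and it was also called at 6 h (10, 13 and 45 counts) and at 24 h.

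The SE effect was compared directly between the times that have their own controls. It was larger at 36 h than at 12 h for 6 genes and smaller for none (all genes 3.35%, with 1.97% larger and 1.38% smaller): Col12a1, Col4a6, Fn1, Col5a3, Col4a5 and Col15a1, of which Col15a1 went from −1.09 after 12 h to 0.51 after 36 h. It was larger at 72 h than at 12 h for 9 genes (Col4a6, Col4a5, Loxl3, Fn1, Col11a1, Col15a1, Lama2, Lamb2 and Sparc) and smaller for 3 (Hspg2, Col7a1 and Col2a1), beside 18.6% of all genes (12.4% larger and 6.25% smaller). Between 36 and 72 h only Col11a2 gained, while Col7a1 and Col8a1 lost (all genes 4.8%, with 3.69% larger and 1.12% smaller). Without the libraries with ganglion transcripts, 6, 9 and 1 of these 6, 12 and 3 calls were kept. Col11a1, Col2a1, Lamb2, Col11a2 and Col8a1 were lost. The effect was then smaller for 3 genes at 36 h against 12 h, 5 at 72 h against 12 h and 1 at 72 h against 36 h. Without the factor for unwanted variation the differences between 12 and 36 h were no longer called for Col12a1, Col15a1, Col4a6 and Col5a3. In that fit the effect at 72 h against 12 h was larger for 5 genes and smaller for 3. At 72 h against 36 h it was larger for 0 and smaller for 1.

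**Figure D4:**
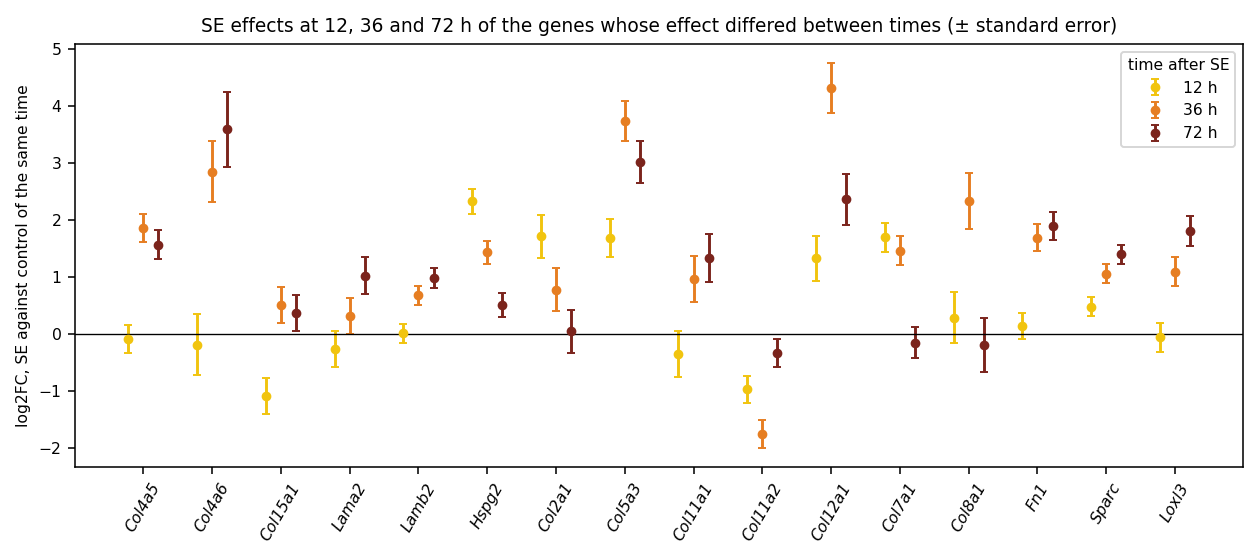
log2FC of SE against the Ctr group of the same time (y axis) at 12, 36 and 72 h for the 16 genes whose SE effect differed between times, with standard errors. Fn1, Sparc, Loxl3, Lamb2 and the Col4a5 and Col4a6 pair sit higher at 36 or 72 h than at 12 h, and Hspg2 steps down from 2.32 to 1.43 to 0.51.

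Between successive SE times at the stricter threshold of 1 log2 unit, few of the genes were called: 1 rose from 6 to 12 h (all genes 1.34%, with 0.457% rising and 0.881% falling), 5 rose and 1 fell from 12 to 24 h (all genes 3.2%, with 1.49% and 1.71%), 0 of the 65 changed from 24 to 36 h (all genes 0.545%, with 0.364% and 0.182%) and 1 rose and 2 fell from 36 to 72 h (all genes 4.18%, with 3.12% and 1.06%). From 12 to 24 h, Col4a5 (1.59 ± 0.24), Col5a3 (1.86 ± 0.32), Nid2 (1.29 ± 0.25), Col12a1 and Col15a1 rose and Col10a1 fell. Col12a1 and Col15a1 were not called without Ctr 72 h replicate 2 in the fit, nor without the factor for unwanted variation. Col12a1 was also lost with a ganglion score. Col10a1 was at 0.745, 59.2 and 4.22 CPM at 12 h, with 1 library far above the others. When the 6 libraries compared were left out 1 at a time, 4 to 7 genes were called. For 24 to 36 h, edgeR's test gave 15 of the 65 an unadjusted p under 0.05, beside 3018 of all 18153 genes. DESeq2 called 1 of the 65. From 36 to 72 h, Col11a2 rose (1.02) and Col12a1 and Col7a1 fell (−1.52 and −1.16). Without the libraries with ganglion transcripts 0 rose, Col11a2 no longer being called, and 4 fell. The fall of Col12a1 was not called in the fit that lacked the factor for unwanted variation. For 36 to 72 h, leaving out the 6 libraries 1 at a time gave 1 to 4 calls, so these calls depended in part on single libraries. The Ctr groups were compared with each other as a background: 2 of the 65, Col8a1 and Nid2, were higher in Ctr 72 h than in the other Ctr groups (all genes 2.92%, with 1.13% higher and 1.79% lower), and neither was called without Ctr 72 h replicate 2.

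To compare levels between genes, mean CPM was divided by the exon length in kilobases. In the 9 Ctr libraries Sparc stood first at 107.97 CPM per kb (96.7 to 155 over libraries), 44.6% of the sum over the 65 genes. Col4a2 (17.7; 14.6 to 20.5), Col4a1 (13.4; 11.2 to 15.8) and Col6a1 (12.99; 8.06 to 19.01) followed, and their ranges overlapped. Lamb2 (7.92) and Fn1 (7.89) came next, also with overlapping ranges. At 72 h after SE Sparc was at 306.6 CPM per kb (280.8 to 321 over libraries). Fn1 (32.5; 27.3 to 35.1), Col4a2 (30.9; 22.5 to 42.8) and Col4a1 (28.8; 19.9 to 34.8) followed, with overlapping ranges. Col16a1 moved from place 10 to 7 and Col5a3 from 21 to 8, at levels that overlapped with each other. Col25a1 moved from place 7 to 22. The genes with the largest log2FC were mostly low in level: Lox stood at 0.222 and Loxl1 at 0.387 CPM per kb in Ctr.

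Genes that act on or with these matrix proteins were followed as well. Of 26 enzymes and chaperones of collagen processing, 4 were higher and 2 lower at 6 h, 8 and 4 after 12 h, 10 and 4 after 24 h, 10 and 2 after 36 h, and 8 and 1 after 72 h. The shares higher were 15.4%, 30.8%, 38.5%, 38.5% and 30.8%, against 15.8%, 13.9%, 15%, 12.7% and 15.2% of all genes tested, and the shares lower 7.69%, 15.4%, 15.4%, 7.69% and 3.85%, against 6.2%, 11.4%, 9.24%, 8.96% and 4.15%. At 72 h 7 were higher and 1 lower without the libraries with ganglion transcripts. Serpinh1, the collagen chaperone HSP47, was called at all 5 times, at 16.1 ± 2.54 CPM (SD, n = 3) in Ctr 36 h and 73.2 ± 9.02 CPM at 36 h after SE (log2FC 2.19 ± 0.19). P4ha3, a subunit of prolyl 4-hydroxylase, was also called at all 5 times, up to 3.55 ± 0.30 after 36 h. Tll1, a relative of the procollagen C-proteinase Bmp1, peaked at 12 h (4.18 ± 0.63). Adamts2, the procollagen N-proteinase, was lower at 12 and 36 h (log2FC −2.04 and −2.71).

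Of 24 measured receptors for collagen, laminin and fibronectin, 7 were higher at 6 h, 11 after 12 h, 9 after 24 h, 14 after 36 h and 15 after 72 h, and Itga8 alone was lower, at 24 and 36 h. The shares higher were 29.2%, 45.8%, 37.5%, 58.3% and 62.5%, against the same shares of all genes as above. Itga5, the alpha chain of the fibronectin receptor, had the largest log2FC of the list at each of the 5 times, from 3.15 ± 0.22 after 6 h to 5.59 ± 0.22 after 24 h. It was at 4.42 ± 2.52 CPM in Ctr 12 h and 103 ± 38.1 CPM at 12 h after SE. Its partner Itgb1 rose at all 5 times (0.89 ± 0.09 after 6 h to 1.496 ± 0.12 after 36 h), as did the syndecans Sdc1 and Sdc4 and the collagen receptor Ddr1. At 72 h 13 receptors were higher without the libraries with ganglion transcripts, and Sdc1 was no longer called. Of 16 other basement membrane components, 4 were higher and 2 lower at 6 h, 1 and 2 after 12 h, 4 and 4 after 24 h, 6 and 0 after 36 h, and 4 and 0 after 72 h. The shares higher were 25%, 6.25%, 25%, 37.5% and 25%, against 15.8%, 13.9%, 15%, 12.7% and 15.2% of all genes tested. The shares lower were 12.5%, 12.5%, 25%, 0% and 0%, against 6.2%, 11.4%, 9.24%, 8.96% and 4.15%. At 12 h the share higher was thus below that of all genes, and at the other times above it. These differences were not tested. Npnt, an integrin ligand, was called at 6, 24, 36 and 72 h (log2FC 3.80 ± 0.68 after 72 h), Fbln2 at the same 4 times, and Smoc2, a Sparc relative, at 36 and 72 h (2.79 ± 0.93 and 3.24 ± 1.00). Smoc2 ran from 12.4 to 128 CPM at 72 h after SE against 0.750 to 17.7 CPM in Ctr 72 h, so the groups overlapped, and the 72 h call was lost without SE 72 h replicate 1. Without the libraries with ganglion transcripts 2 of the list were higher at 72 h, and neither Npnt nor Smoc2 was called.

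**Figure D5:**
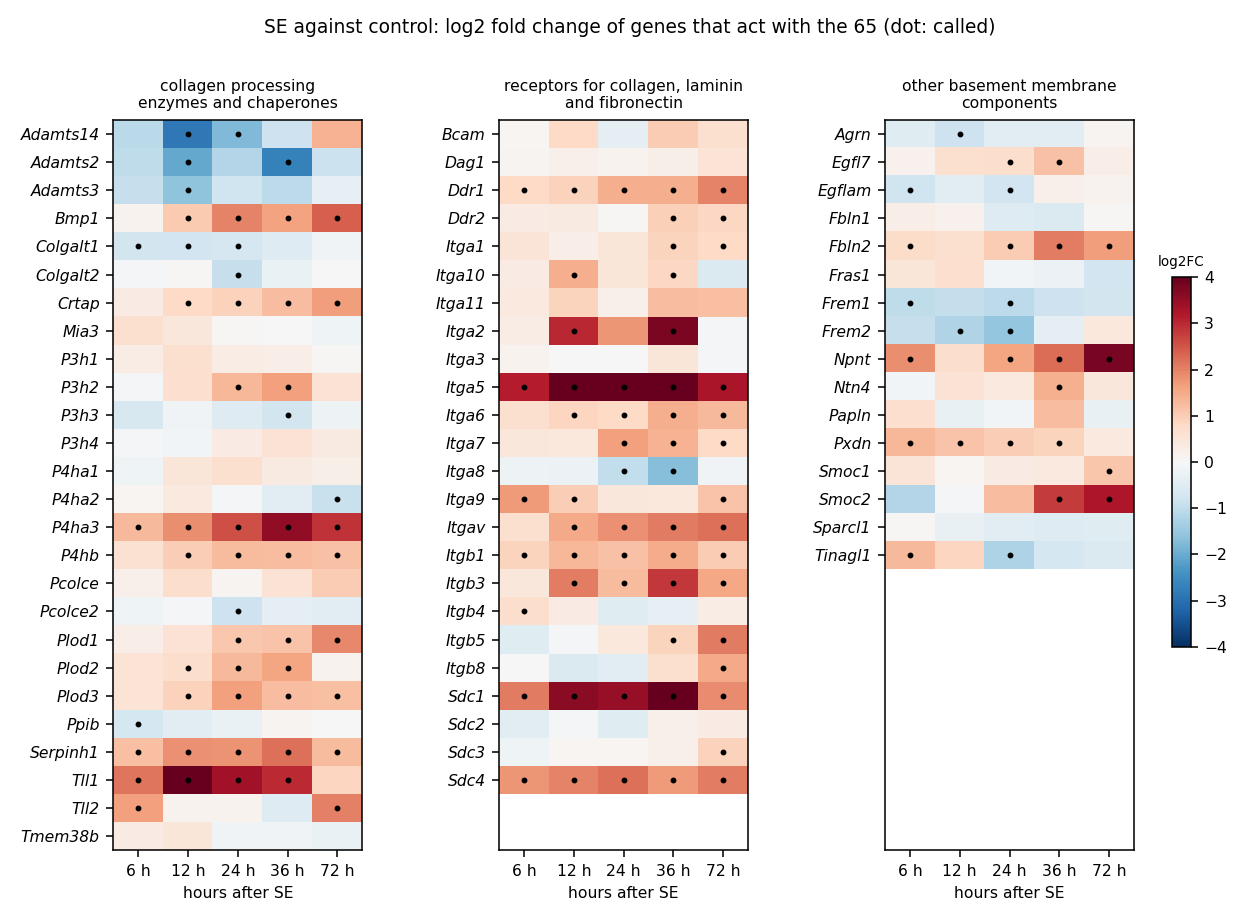
log2FC of SE against Ctr (colour, scale limited to −4 to 4) from 6 h (left) to 72 h (right) for 26 collagen processing genes, 24 receptors and 16 other basement membrane components, with a dot where a gene was called. Itga5, Itgb1, Sdc1, Sdc4, Ddr1, Serpinh1 and P4ha3 carry a dot in all 5 columns.

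The upstream sequences were read from GRCm39, as the 250 bases before each annotated start, for the 65 genes and for 15431 protein-coding genes. On either strand, CCAAT occurred in 32.3% of the 65 and 35.3% of all, TATAAA in 12.3% and 7.71%, GGGCGG in 52.3% and 46.6%, TGACGTCA in 1.54% and 1.96%, and TGANTCA in 0 of the 65 and 4.89% of all. The median GC content was 58.4% and 56.4%. The last 120 bases before the start are shown for fibrillar genes with different courses (Col1a1 and Col5a3 with CCAAT, Col3a1 with TATAAA) and for the perlecan gene, which holds GGGCGG 3 times. Capitals mark these motifs on either strand, Col1a1 at chr11:94826930-94827049 (plus), Col3a1 at chr1:45350578-45350697 (plus), Col5a3 at chr9:20726419-20726538 (minus) and Hspg2 at chr4:137195959-137196078 (plus).
Col1a1: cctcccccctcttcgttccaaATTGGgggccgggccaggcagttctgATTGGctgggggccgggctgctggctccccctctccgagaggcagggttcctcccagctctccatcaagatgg
Col3a1: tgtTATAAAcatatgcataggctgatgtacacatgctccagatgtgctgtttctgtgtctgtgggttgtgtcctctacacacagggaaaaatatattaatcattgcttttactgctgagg
Col5a3: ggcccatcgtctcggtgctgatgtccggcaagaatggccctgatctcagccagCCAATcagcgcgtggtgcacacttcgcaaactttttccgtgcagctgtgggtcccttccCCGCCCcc
Hspg2: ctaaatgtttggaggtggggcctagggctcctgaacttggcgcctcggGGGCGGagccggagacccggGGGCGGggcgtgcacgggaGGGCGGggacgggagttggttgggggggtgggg
These are matches of letters only, and binding at them was not measured.

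In all, 15 of the 65 genes were called in none of the 5 SE against Ctr comparisons (23.1%, against 50.1% of all genes): Col4a4, Col5a1, Col6a2, Col6a6, Col9a1, Col9a2, Col13a1, Col22a1, Col23a1, Col24a1, Col28a1, Lama1, Lama3, Lamb1 and Lamc3. For several of these the libraries of a group spread widely, as with Lama1 at 9.67, 0.980 and 0.849 CPM at 6 h, and a change smaller than that spread was not detectable here.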

How the data were processed

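Counts per gene were deposited by the authors as a table of raw read counts for 24 libraries, made from paired-end reads trimmed with Trim Galore 0.6.6, aligned to GRCm39 with STAR 2.7.8a, handled with SAMtools 1.10 and counted without strand by HTSeq 0.13.5 on GENCODE annotation. Of 18647 identifiers, 18552 matched a symbol in a later GENCODE release. Counts were fitted over all 8 groups with edgeR 4.0.16 (R 4.3.3; quasi-likelihood test, TMM scaling, filterByExpr, 1 factor of unwanted variation from the residuals), and p-values were adjusted by Benjamini-Hochberg over 18153 genes. The factor was largest in Ctr 72 h replicate 2, so fitted log2FC can differ from ratios of the CPM shown, which are scaled by TMM only. Alternatives were DESeq2 1.42.0, limma 3.58.1 (voom), other scalings, filters, thresholds and covariates, and leaving out libraries. On simulated data with 200 genes changed by 1.5 log2 units (SE 12 h against Ctr 12 h), 67.5% were recovered, with 6 false calls among 17002 genes tested. All other values were drawn from the Ctr mean of each gene, without ganglion transcripts or unwanted variation. The share recovered therefore need not hold for the calls given here. The members and the gene lists were chosen with earlier results of these data known; genes named are 22 listed ones, the 10 largest called changes in each direction per comparison (all called where 20 or fewer) and those whose effect differed between times, and others were named after their values were seen. Values of some genes are not reported here.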

Additional observations from a re-analysis of the deposited data

Results flagged for a closer look

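Genes whose SE effect differed between times, by the test of the difference itself, are given as log2FC differences (edgeR, adjusted over all genes). The effect at 36 h minus that at 12 h was 2.99 for Col12a1, 3.03 for Col4a6, 2.04 for Col5a3, 1.95 for Col4a5, 1.60 for Col15a1 and 1.55 for Fn1. At 72 h minus 12 h it was 3.78 for Col4a6, 1.88 for Loxl3, 1.76 for Fn1, 1.67 for Col11a1, 1.66 for Col4a5, 1.47 for Col15a1, 1.29 for Lama2, 0.97 for Lamb2 and 0.92 for Sparc, and −1.66 for Col2a1, −1.82 for Hspg2 and −1.85 for Col7a1. At 72 h minus 36 h it was 1.42 for Col11a2, −1.61 for Col7a1 and −2.52 for Col8a1. Those at 72 h use Ctr 72 h, whose replicate 2 carried ganglion transcripts.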

How the results depend on the processing

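Of 150 calls of single genes against Ctr, 82 were kept under every alternative and 267 of 3587 alternative values fell short of the threshold, with no reversal. At 72 h against Ctr 72 h, 28 calls became 17 with the range of the library label numbers as a factor and 18 without the libraries with ganglion transcripts (chosen after seeing the data, as was leaving out Ctr 72 h replicate 2 everywhere). No other count against Ctr at 6, 12, 24, 36 or 72 h moved by over 1.5 times.

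Counts that start small moved more. From 6 to 12 h, 1 call became 2 with DESeq2, voom or the label range, 0 with the compared groups only and 4 with a threshold of 0.66 or none (0 to 3 leaving out libraries). From 12 to 24 h, 6 became 10 with DESeq2, either lower threshold or no ganglion libraries and 2 with the compared groups only (4 to 7 leaving out libraries). From 24 to 36 h, 0 became 1 with DESeq2, the compared groups only or no ganglion libraries (0 leaving out any library). From 36 to 72 h, 3 became 1 with the compared groups only, 5 at 0.66 and 6 without a threshold (1 to 4 leaving out libraries). For 36 against 12 h, 6 became 2 without the factor and 3 with a ganglion score (3 to 7 leaving out libraries). For 72 against 36 h, 3 became 1 without the factor, with voom, without Ctr 72 h replicate 2 or without ganglion libraries and 5 with DESeq2 (1 to 8). Among the Ctr groups, 2 became 4 with DESeq2, 0 with voom, the ganglion score, no Ctr 72 h replicate 2 or no ganglion libraries, 1 with the label range or a threshold of 1, and 6 with the compared groups only (0 to 10). The causes were not tested.

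Same-numbered libraries deviated together at most weakly (r from −0.201 to 0.181 over 9 pairs, 4 of them above 0.1). At 12 and 36 h r was −0.002 to 0.181 for same numbers and −0.185 to 0.080 for different ones. At 72 h it was −0.201 to 0.162 and −0.299 to 0.252. The numbers were not taken as pairs. The replicate block gave 26, 33, 27, 29 and 34 calls at 12, 36, 72, 6 and 24 h. The Ctr 72 h libraries held 2663936 to 11680209 counts; whether this depth limits the calls at 72 h was not tested. Scaling by library total kept the 10 highest genes per kb in Ctr (Sparc 106 in place of 108 CPM per kb).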

Other observations

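Col23a1, a transmembrane collagen, was high in 1 library of several groups: 51.6 CPM in Ctr 12 h replicate 2 against 19.8 and 15.5 CPM, 30.3 CPM in SE 6 h replicate 1 against 9.80 and 11.9 CPM, 67.8 CPM in SE 12 h replicate 2 against 17.4 and 20.4 CPM, and 44.0 CPM in SE 24 h replicate 2 against 13.1 and 6.24 CPM. Col1a1 was highest of its group in the same libraries, at 17.6, 38.4, 45.9 and 24.9 CPM. These libraries had at most 20.2 CPM of the ganglion list. Their summed markers of leptomeningeal and perivascular fibroblasts were the highest of each group, at 66.5 CPM against 43.0 and 39.1 CPM in Ctr 12 h, 173 CPM against 31.6 and 38.6 CPM at 6 h, 126 CPM against 60.9 and 44.7 CPM at 12 h, and 88.8 CPM against 31.1 and 22.8 CPM at 24 h. SE 72 h replicate 1, which did carry ganglion transcripts, was also highest of its group in Col23a1 (34.3 CPM), Col1a1 (39.8 CPM) and the fibroblast sum (100.3 CPM). In the remaining groups the library with the most Col23a1 had instead the lowest fibroblast sum in Ctr 36 h (17.99 and 30.1 CPM), SE 36 h (11.3 and 55.4 CPM) and Ctr 72 h (29.3 and 35.02 CPM). They were picked after their values were seen, and the part of those cells was not tested.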
